A study of Rattus norvegicus with 16 samples.

Results

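The potassium channel genes were the transcript clusters of the array whose annotation gave exactly 1 gene symbol beginning with Kcn, with Kcnj8, Kcnj13 and Kcne2 left out. 80 genes met this rule, each with 1 transcript cluster, among 27342 clusters in all, of which 15097 carried exactly 1 symbol. 65 of them encode subunits that line a pore and 15 encode auxiliary subunits or regulators. The values came from 16 Affymetrix arrays of hippocampus and cortex of male Sprague-Dawley rats, which entered the experiment at an age of 15 months. The rats had eaten either chow containing curcumin, a polyphenol from turmeric, or control chow, freely for 6 or 12 weeks. That made 8 groups of 2 arrays. Each RNA was pooled from 3 rats, so that 6 rats stood behind a group. The labels called the arrays of a group biological replicates, whereas the methods also described duplicate arrays of each RNA, so the p-values below measure only the spread between arrays, which may be technical. The 12-week groups also differed from the 6-week groups in age and in any date of processing, and these cannot be told apart from duration.

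Potassium channels let potassium leave or enter a cell and so set its resting potential, the width of its action potentials and how fast it can fire again. Voltage-gated Kv channels open on depolarisation. The KCNQ and EAG families belong to the same superfamily. Silent Kv subunits form no channel of their own and change the channels they join. Calcium-activated and sodium-activated channels follow activity, inward rectifiers and two-pore-domain channels hold the resting potential, and beta, KChIP and KCNE subunits bind to the pore and change its gating or its trafficking. In hippocampus and cortex these families are known for shaping dendritic excitability and fast spiking, and in astrocytes for the uptake of potassium.

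The promoters shown first belong to the called members with the largest log2 differences between tissues, a pair in each direction, so that the sequences stand beside the genes described below. They are the 250 bases before the RefSeq start of the gene on build GRCr8, written 5′ to 3′ on the gene's strand, with GC boxes in capitals (GGGCGG on either strand). Kcnh5 and Kcnf1 were higher in cortex, and Kcnab2 and Kcnj6 were higher in hippocampus.
Kcnh5 (chr6:99643857-99644106, minus strand): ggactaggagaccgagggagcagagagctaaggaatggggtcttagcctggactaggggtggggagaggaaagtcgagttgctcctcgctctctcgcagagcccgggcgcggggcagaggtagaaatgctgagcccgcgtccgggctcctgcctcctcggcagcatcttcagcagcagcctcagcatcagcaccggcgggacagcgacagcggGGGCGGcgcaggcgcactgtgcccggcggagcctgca
Kcnf1 (chr6:45693707-45693956, minus strand): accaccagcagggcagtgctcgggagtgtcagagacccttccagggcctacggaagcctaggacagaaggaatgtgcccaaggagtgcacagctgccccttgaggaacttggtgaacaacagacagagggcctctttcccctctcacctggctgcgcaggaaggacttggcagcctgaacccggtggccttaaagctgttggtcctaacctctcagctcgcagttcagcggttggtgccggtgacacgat
Kcnab2 (chr5:168270761-168271010, minus strand): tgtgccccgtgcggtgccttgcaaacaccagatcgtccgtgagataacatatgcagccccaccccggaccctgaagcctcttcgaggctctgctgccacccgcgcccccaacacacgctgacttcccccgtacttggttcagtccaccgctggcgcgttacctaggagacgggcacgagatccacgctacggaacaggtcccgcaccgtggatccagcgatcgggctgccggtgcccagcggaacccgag
Kcnj6 (chr11:47778349-47778598, minus strand): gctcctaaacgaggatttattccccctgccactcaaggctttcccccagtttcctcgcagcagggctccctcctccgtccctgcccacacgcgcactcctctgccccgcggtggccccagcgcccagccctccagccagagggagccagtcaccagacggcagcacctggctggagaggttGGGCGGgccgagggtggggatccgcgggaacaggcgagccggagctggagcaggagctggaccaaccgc
Kcnh5 and Kcnj6 each held 1 GC box and Kcnf1 and Kcnab2 held 0, so this motif occurred once in each direction of tissue difference. RefSeq promoters were listed for 56 of the 80 members, 62 promoters in all, since 6 members had several. Their median GC content was 59.6% with a median of 11 CpG dinucleotides, against 51.2% and 5 over all 33469 listed promoters. A GC box stood in 48.4% of the members' promoters and in 30.5% of all, and the TATA box TATAAA in 1.61% and 12.9%. The CRE core TGACG, searched on both strands like the others, occurred in 17.7% of the members' promoters and 18.2% of all, and the E-box CACGTG in 3.23% and 5.59%. A match describes the sequence only.

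All values are deposited log2 intensities, on which a difference of 1 is a 2-fold change, and they compare arrays for 1 gene, not genes with each other. Array medians lay between 6.35 and 6.44, and 22 of the 80 members had a mean below 6.4, the median of all cluster means. The granule cell genes Prox1 (7.31 to 8.07 in hippocampus, 5.71 to 6.81 in cortex) and C1ql2 (7.86 to 8.77 and 5.93 to 6.53) followed the tissue labels, while the remaining measured granule cell marker, Tdo2, was near the bottom of the scale in both (4.67 to 4.75 and 4.67 to 4.86). Fezf2, the 1 of 6 listed markers of cortical projection neurons that was measured, was higher in hippocampus by 0.49, so the cortex label was not borne out by this list. Both cortical arrays of control chow at 6 weeks stood apart from the other cortical arrays. The summed linear level of 7 striatal neuron markers was 3930 in the first of them, against 824 to 2540 in the other 7 cortical arrays. The summed level of 7 olfactory bulb markers was 2620 in the second, against 647 to 1140. Among the hippocampal arrays, 5 choroid plexus and ependyma markers summed to 1010 and 6010 in control chow and 256 and 4800 in curcumin chow at 6 weeks, and to 273 to 412 at 12 weeks. The potassium channel genes varied more between the 2 control chow cortical arrays at 6 weeks than clusters in general, with an SD of the difference of 0.408 against 0.219. Kcnab1, a beta subunit of Kv1 channels, differed most, at 9.96 and 8.49.

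Between the tissues, 20 of the 80 members differed, 6 higher and 14 lower in hippocampus (limma, Benjamini-Hochberg adjusted p over all clusters under 0.05). Over all clusters 6.05% were called higher and 3.63% lower. The median log2 difference was -0.04 for the members and 0 for all clusters. In 19 of the 20 the difference had the same sign in all 4 combinations of diet and duration, the exception being Kcnk4 in 6-week control chow (0.01). The members were called on the mean of these combinations, so the shared sign is partly given by that choice. Sizes varied between combinations, as for Kcnd2 (0.03 to 0.60). The labels do not state whether hippocampus and cortex came from the same rats. The methods describe taking both tissues from each rat and pooling each tissue within a group. They do not state which hippocampal and cortical arrays shared rats, and the test between tissues treated the arrays as unpaired. In bulk tissue, fewer cells of a type and less RNA per cell cannot be told apart.

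**Figure D1:**
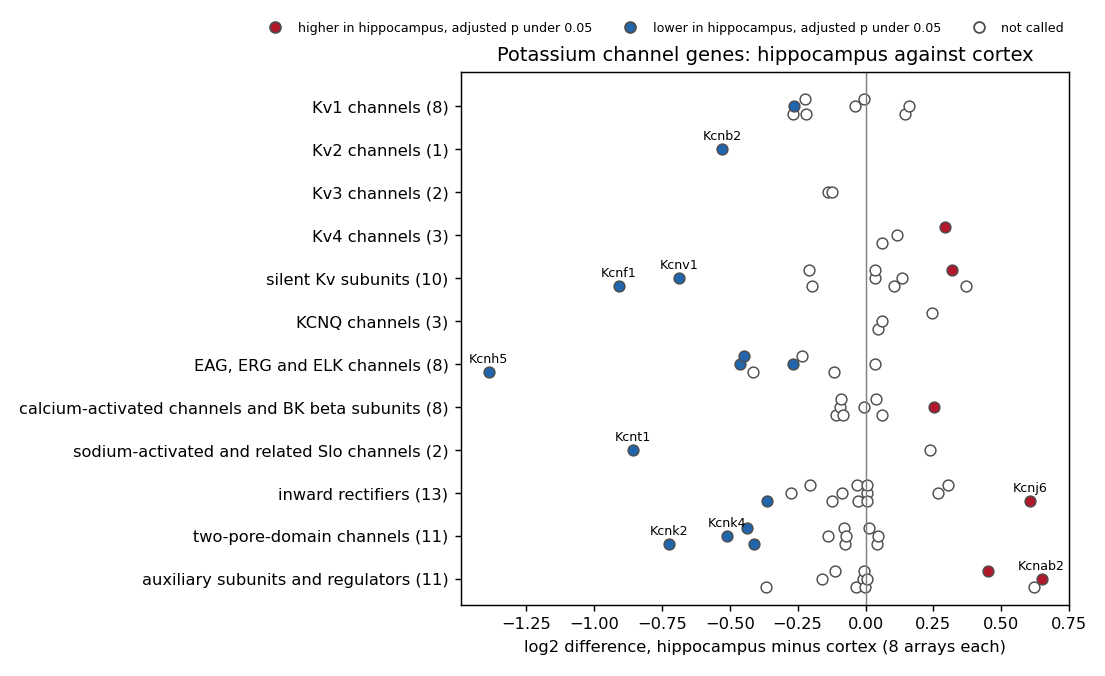
Log2 difference of each of the 80 members, hippocampus minus cortex over 8 arrays each, by family (number of members in parentheses), with filled points for members with an adjusted p under 0.05. The EAG, ERG and ELK channels and the two-pore-domain channels each held 4 of the 14 members that were lower in hippocampus.

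All 14 members lower in hippocampus encode subunits that line a pore. Kcnh5, a voltage-gated channel of the EAG family, lay between 6.66 and 8.34 with a median of 7.40 in hippocampus and between 8.03 and 9.52 with a median of 8.90 in cortex. Its arrays overlapped, because 1 hippocampal array of 12-week curcumin chow (8.34) passed the lowest cortical one. The difference was -1.39 ± 0.23 (SE, n = 8 arrays each, limma adjusted p = 0.00289), the largest of any member. Kcnf1, a silent subunit that joins Kv2 channels, lay between 7.68 and 8.09 (median 7.79) in hippocampus and between 8.41 and 9.03 (median 8.76) in cortex. The arrays did not overlap, and the difference was -0.91 ± 0.09 (SE, n = 8, limma adjusted p = 6.91e-05). Kcnt1, a sodium-activated channel, lay between 7.53 and 8.05 (median 7.82) in hippocampus and between 8.38 and 8.94 (median 8.63) in cortex. It differed by -0.86 ± 0.07 (SE, n = 8, limma adjusted p = 1.67e-05), with no overlap. Kcnk2, a two-pore-domain channel opened by stretch and lipids, lay between 7.25 and 7.79 in hippocampus, and between 7.79 and 8.64 in cortex, so that the tissues met at 7.79 without crossing. Within the 4 combinations of diet and duration, the Kcnk2 difference was -0.86, -0.93 and -0.97, but -0.13 in 12-week curcumin chow.

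By family, 4 of the 8 EAG, ERG and ELK channels were lower in hippocampus, namely Kcnh5, Kcnh4 (-0.46), Kcnh1 (-0.45) and Kcnh3 (-0.27). In this family 7 of the 8 had negative values, against 48 of the 80 members and 13672 of all 27342 clusters. Of 11 two-pore-domain channels, which carry background current, 4 were lower: Kcnk2 (-0.72), Kcnk4 (-0.51), Kcnk1 (-0.44) and Kcnk9 (-0.41). The Kcnk9 difference was -0.08 in control and -0.38 in curcumin chow at 6 weeks, and -0.09 and -1.09 at 12 weeks. The other 7 lay between -0.14 and 0.05. Kcnv1, a silent subunit, was lower at -0.69, the inward rectifier Kcnj4 at -0.36 and the Kv1 channel Kcna5, named after its value was seen, at -0.26. Kcnb2, the Kv2 channel, was called lower at -0.53 (limma adjusted p = 0.0431) with 1 cortical array of 6-week control chow at 8.30 and the other 7 between 6.97 and 7.54. Without that array its difference was -0.36 (limma adjusted p = 0.000264), and its call was lost without any 1 of 14 other arrays, with an adjusted p of at most 0.0962.

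**Figure D2:**
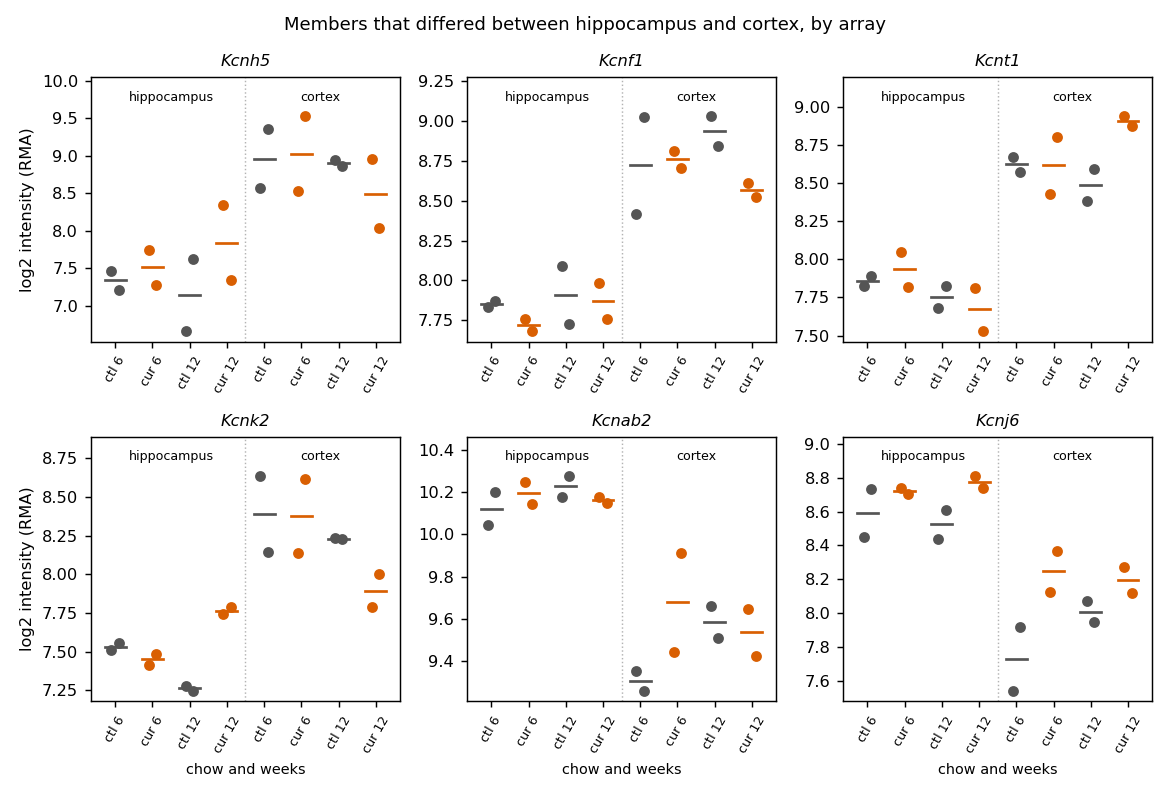
Log2 intensity of 6 members in each array, by tissue, chow (ctl, control; cur, curcumin) and weeks, with points for arrays and bars for group means of 2 arrays. Kcnf1, Kcnt1, Kcnk2, Kcnab2 and Kcnj6 separated the tissues without overlap, and Kcnh5 did not.

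Of the 6 members higher in hippocampus, 3 were auxiliary subunits. Kcnab2, a beta subunit of Kv1 channels, lay between 10.04 and 10.28 (median 10.18) in hippocampus and between 9.26 and 9.91 (median 9.48) in cortex. The arrays did not overlap, and the difference was 0.65 ± 0.07 (SE, n = 8, limma adjusted p = 1.09e-04). Kcnj6, a subunit of the G protein-gated inward rectifiers, lay between 8.44 and 8.81 (median 8.72) and between 7.54 and 8.37 (median 8.10), also with no overlap, and differed by 0.61 ± 0.07 (SE, n = 8, limma adjusted p = 1.83e-04). The A-type channel Kcnd2, which works in dendrites, was higher at 0.29 and its calcium-binding partner Kcnip2 at 0.45, while the related channel Kcnd3 was not called (0.06). Kcng2, a silent subunit, was higher at 0.32, a call lost without any 1 of 8 of the 16 arrays. Kcnmb2, which inactivates the large-conductance calcium-activated (BK) channel, was higher at 0.25. Its signal was low, with cortical means of 5.64 in control and 5.71 in curcumin chow at 6 weeks. The Kcnmb2 call was lost in 2 of 8 alternatives other than leaving out 1 array. The BK pore itself, Kcnma1, had a median of 9.85 in hippocampus and 9.87 in cortex, a difference of -0.01. In all, 2 members had every hippocampal array above every cortical array and 5 had every one below, against 1.13% and 0.475% of all clusters. The 5 were Kcnf1, Kcnt1, Kcnk2, Kcnh4 and Kcnj4.

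Several well-known brain channels did not pass the test. Kcnj10, the astrocyte channel for potassium uptake, ranged from 8.38 to 8.63 in hippocampus and from 8.10 to 8.71 in cortex, a difference of 0.00. Kcnc1 and Kcnc2, which serve fast-spiking interneurons, had values of -0.14 and -0.12, and the axonal Kv1 channels Kcna1 and Kcna2 of 0.15 and -0.22. Kcnab1 showed 0.62 with an adjusted p of 0.0527 in limma, its cortical arrays spreading from 8.49 to 9.96. All 8 interneuron markers had lower values in hippocampus (median -0.29, 3 called), with summed levels of 2770 to 3300 against 3010 to 4570 in cortex. All 7 striatal markers were also lower in value (median -0.87), with summed levels of 677 to 750 in hippocampus and 824 to 3930 in cortex. Lower values also came from 7 of 7 olfactory bulb markers (1 called, 640 to 764 against 647 to 2620) and 6 of 7 hypothalamus and thalamus markers (1 called, 480 to 580 against 531 to 1790). Higher values in hippocampus came from 6 of 7 astrocyte markers (4 called, 9930 to 11300 against 8260 to 10200), 9 of 9 oligodendrocyte markers (0 called, 5140 to 9260 against 3410 to 9700) and 5 of 5 choroid plexus markers (0 called). Their part in the channel differences was not tested. At 12 weeks alone, a setting chosen after seeing the data, 19 members were called, against 7.19% of all clusters. Striatal sums there were still between 824 and 2540 in cortex. In control chow alone, a planned setting, 9 members were called.

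In hippocampus at 6 weeks, the comparison of curcumin with control chow called 0 members in limma, against 0% of all clusters. None had an unadjusted p under 0.05, against 2.03% of all clusters, and none met the 1.5-fold rule of the methods (at least 1.5-fold or at most 0.66-fold of control), against 0.121%. The members lay between -0.24 and 0.22 with a median of -0.01, against 0.00 over all clusters. Kcnip3, a calcium-binding partner of Kv4 channels, read 8.41 and 8.14 in control and 8.02 and 8.06 in curcumin chow. Its arrays did not overlap, and its difference of -0.24 ± 0.12 (SE, n = 2 arrays each) had an adjusted p of 1 in limma. Kcnh3, an ELK channel, read 8.06 and 8.26 in control and 8.37 and 8.40 in curcumin chow, a difference of 0.22 that likewise did not pass.

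In cortex at 6 weeks 0 members were called, against 0.106% of all clusters, but 25 had an unadjusted p under 0.05, against 12.0%. Of these 20 were higher with curcumin chow, against 6.94% of all clusters, and 5 were lower, against 5.11%. The median difference was 0.05 for members and 0.00 for all clusters. Kcnmb4, the BK beta subunit of neurons, read 7.28 and 7.07 in control and 7.72 and 7.72 in curcumin chow. The arrays did not overlap, and the difference of 0.55 ± 0.09 (SE, n = 2) had a limma adjusted p of 0.0520. Kcnt2, a sodium-activated channel, read 7.89 and 7.61 in control and 8.41 and 8.65 in curcumin chow, a difference of 0.78 ± 0.16 (SE, n = 2, limma adjusted p = 0.0874) with no overlap. Kcnj9, a partner of Kcnj6 in G protein-gated channels, read 6.98 and 6.82 in control and 7.30 and 7.66 in curcumin chow, a difference of 0.58 ± 0.13 (SE, n = 2, limma adjusted p = 0.107). Kcnj6, which forms channels with Kcnj9, had a value of 0.52. Kcna6 (-0.46), Kcna4 (-0.30) and Kcnj5 (-0.21) had the most negative moderated t, and none of these passed. The signal of Kcnj5 was low, with means of 5.64 in control and 5.42 in curcumin chow.

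By the 1.5-fold rule, 2 members were higher in cortex at 6 weeks, Kcnt2 and the silent subunit Kcnv1, against 1.25% of all clusters. Kcnv1 read 7.91 and 7.48 in control and 8.21 and 8.47 in curcumin chow, a difference of 0.65 ± 0.27 (SE, n = 2, limma adjusted p = 0.361). Both genes were listed by the study from these same arrays, so their size is not independent evidence. 9 of the 10 silent subunits had positive values, with a median of 0.21, against 49 of the 80 members and 13823 of all 27342 clusters. Some of these were very small, as for Kcnv2 (0.01), Kcng3 (0.03) and Kcnf1 (0.04). The subunits were read on the same arrays and are not replicates. Of these subunits, 4 had an unadjusted p under 0.05 in limma, against 12.0% of all clusters. The control arrays of this comparison were those that stood apart. In 4 members, Kcna4, Kcnd2, Kcng4 and Kcnj5, both of these arrays lay above the other 6 cortical arrays, against 2000 of all 27342 clusters. In 15 of the 80 members both of them lay below the other 6 cortical arrays, against 8.02% of all clusters, and these 15 included Kcnmb4, Kcnt2, Kcnj9, Kcnj6, Kcnk4, Kcnip3 and Kcnip4. Without the first of them 6 members were called, with Kcnmb4 at 0.65 (limma adjusted p = 0.00895) and Kcnt2 at 0.92 (limma adjusted p = 0.0285), and without any other 1 of the 4 arrays none was.

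Markers of other cells and regions had different values in the same comparison, though 0 of those given here were called. All 9 oligodendrocyte markers had lower values in curcumin chow (median -0.81), with summed levels of 7130 to 9700 in control and 3410 to 6860 in curcumin arrays. All 7 olfactory bulb markers (median -1.10), all 7 hypothalamus and thalamus markers (median -0.81), all 7 striatal markers (median -0.56) and all 3 red blood cell markers (median -1.27) were also lower in value. Their summed levels in control and curcumin arrays were 1140 to 2620 and 769 to 789 for olfactory bulb, 626 to 1790 and 572 to 575 for hypothalamus and thalamus, 946 to 3930 and 856 to 1820 for striatum, and 614 to 1740 and 381 to 438 for red blood cells. Fezf2 had a positive value of 0.80. The part of these shifts in the channel values was not tested.

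**Figure D3:**
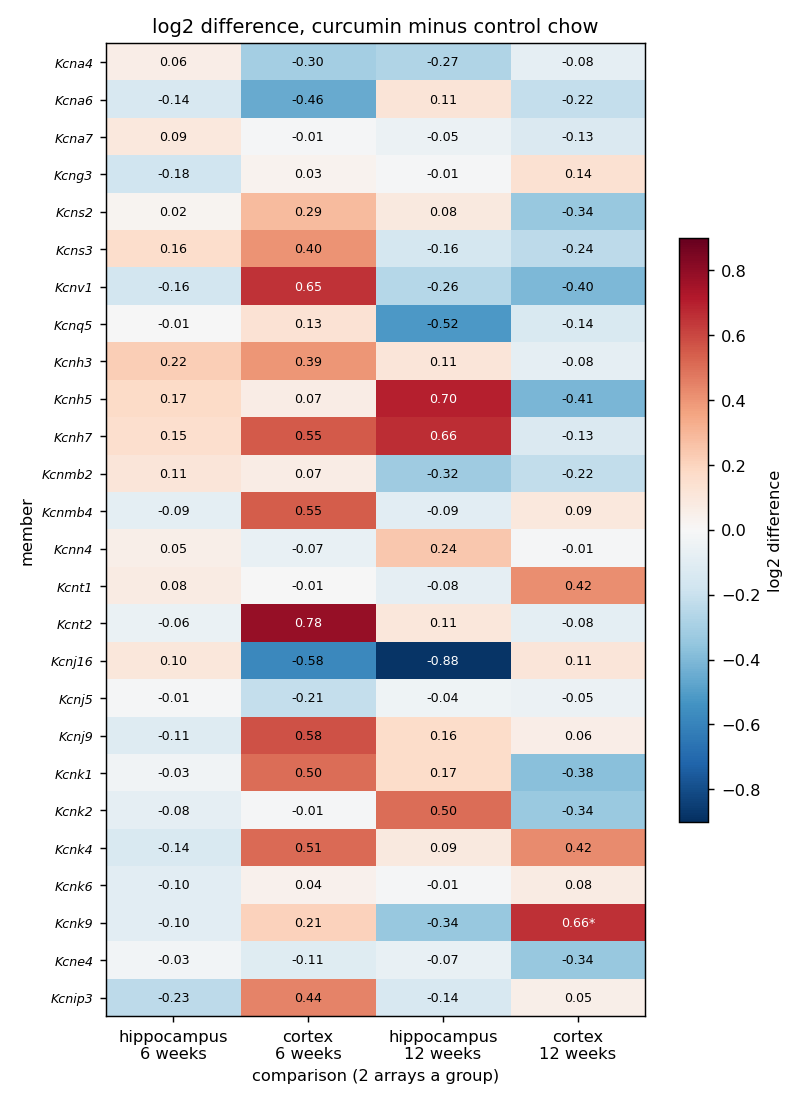
Log2 difference, curcumin minus control chow, of the members named in any of the 4 comparisons (columns, 2 arrays a group), ordered by family, with an asterisk where the adjusted p was under 0.05. The only asterisk is at Kcnk9 in cortex at 12 weeks (0.66), and the values of Kcnt2 (0.78), Kcnv1 (0.65) and Kcnj9 (0.58) in cortex at 6 weeks stand beside -0.08, -0.40 and 0.06 at 12 weeks.

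In hippocampus at 12 weeks 0 members were called, against 0.00366% of all clusters, and 9 had an unadjusted p under 0.05, against 5.11%. By the 1.5-fold rule 3 members passed, against 0.230%: Kcnh5, Kcnh7 and Kcnj16. The median difference was 0.00 for members and for all clusters. Kcnh5 read 6.66 and 7.62 in control and 8.34 and 7.34 in curcumin chow. Its arrays overlapped, and the difference of 0.70 had a limma adjusted p of 0.999. Kcnh7, an ERG channel, read 7.81 and 8.01 in control and 8.78 and 8.36 in curcumin chow, a difference of 0.66 ± 0.24 (SE, n = 2, limma adjusted p = 0.894) without overlap. Kcnj16, which pairs with Kcnj10 in glia, read 7.66 and 7.83 in control and 6.59 and 7.14 in curcumin chow, a difference of -0.88 ± 0.37 (SE, n = 2, limma adjusted p = 0.948) without overlap. Kcnj10 itself read 8.41 and 8.63 in control and 8.41 and 8.38 in curcumin chow. Kcnh5 and Kcnj16 were chosen by the study from these arrays, so their size here is not independent evidence.

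Other hippocampal values at 12 weeks were smaller and none passed. Kcnk2 read 7.28 and 7.25 in control and 7.74 and 7.79 in curcumin chow, a difference of 0.50 ± 0.16 (SE, n = 2, limma adjusted p = 0.852). Kcnq5, a channel of the M current, read 8.83 and 9.04 in control and 8.59 and 8.25 in curcumin chow, a difference of -0.52 ± 0.16 (SE, n = 2, limma adjusted p = 0.801). Its relative Kcnq3 had a value of the opposite sign, at 9.38 and 9.43 in control and 9.67 and 9.58 in curcumin chow. Of the silent subunits 9 of 10 had negative values, several of them very small, with a median of -0.08. Negative values came from 41 of the 80 members and 13722 of all 27342 clusters. Positive values came from 7 of the 8 EAG, ERG and ELK channels, with a median of 0.09, and from 13620 of all clusters. No rule chose the families counted here or in the other comparisons.

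In cortex at 12 weeks 1 member was called, 1.25% of the 80 against 3.24% of all clusters. It was Kcnk9, an acid-sensitive two-pore-domain channel, which read 7.92 and 8.10 in control and 8.65 and 8.69 in curcumin chow. The arrays did not overlap and Kcnk9 rose by 0.66 ± 0.14 (SE, n = 2, limma adjusted p = 0.0269), a 1.58-fold change. The call was lost without any 1 of the 4 arrays, with differences of 0.57 to 0.75 and adjusted p of 0.0689 to 0.213. In hippocampus at the same time Kcnk9 read 8.06 and 7.78 in control and 7.60 and 7.57 in curcumin chow, a difference of -0.34. Kcnk9 was also the 1 member past the 1.5-fold rule, against 0.827% of all clusters, and 10 members had an unadjusted p under 0.05, against 15.1%. The median was -0.05 for members and 0.00 for all clusters.

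Among the members that did not pass in cortex at 12 weeks, Kcnt1 read 8.38 and 8.59 in control and 8.94 and 8.87 in curcumin chow, a difference of 0.42 ± 0.14 (SE, n = 2, limma adjusted p = 0.132). Kcnk4, opened by stretch and lipids like Kcnk2, read 9.35 and 9.11 in control and 9.82 and 9.49 in curcumin chow (0.42). Kcne4 (-0.34), an inhibitory KCNE subunit, Kcns2 (-0.34) and Kcnk1 (-0.38) had the lowest values by moderated t. Of the 10 silent subunits 8 had negative values, with a median of -0.22, against 49 of the 80 members and 13605 of all 27342 clusters. All 7 striatal markers (median -0.51, summed levels 829 to 2540 in control and 824 to 1270 in curcumin arrays) and all 9 oligodendrocyte markers (median -0.27, 4820 to 7000 and 4310 to 5800) were also lower in value. So were all 7 astrocyte markers (median -0.23, 1 called, 9840 to 10200 and 8260 to 9400) and all 6 endothelial and pericyte markers (median -0.20, 0 called, 2070 to 2110 and 1720 to 1920). Higher values came from 6 of 7 hypothalamus and thalamus markers (median 0.22, 0 called, 535 to 556 and 531 to 1200). Of the interneuron markers, 6 of 8 were higher in value (median 0.09, 0 called, 3440 to 3690 and 3510 to 3750). Their part was not tested.

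**Figure D4:**
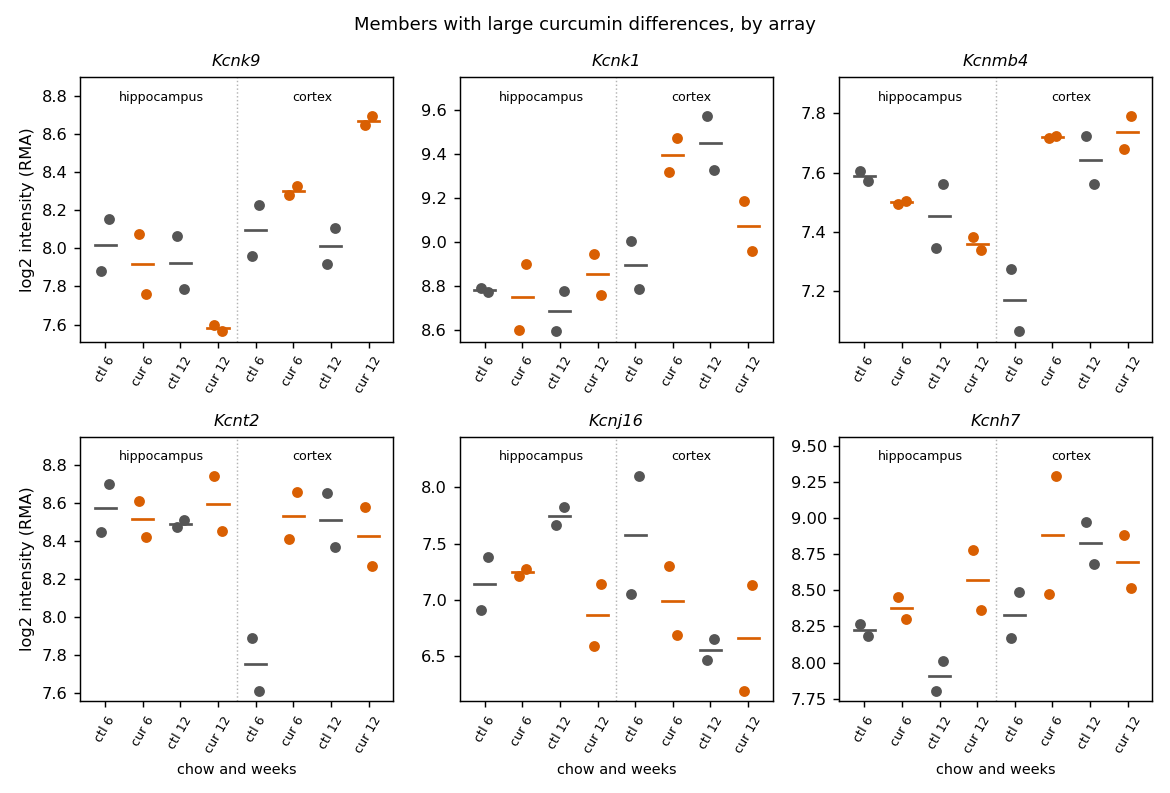
Log2 intensity of 6 members in each array, by tissue, chow (ctl, control; cur, curcumin) and weeks, with points for arrays and bars for group means of 2 arrays. Cortical Kcnk9 in 12-week curcumin chow (8.65 and 8.69) lies above all other arrays, and cortical Kcnt2 and Kcnmb4 in 6-week control chow lie below all other cortical arrays.

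Whether the curcumin difference changed with duration was tested directly. In cortex 1 member passed, against 1.47% of all clusters. It was Kcnk1, a weakly conducting two-pore-domain channel, which read 9.0 and 8.78 in control and 9.32 and 9.47 in curcumin chow at 6 weeks. At 12 weeks it read 9.57 and 9.33 in control and 9.18 and 8.96 in curcumin chow. The curcumin difference was 0.50 at 6 weeks and -0.38 at 12 weeks, and neither passed alone. Their difference was -0.88 ± 0.19 (SE, limma adjusted p = 0.0456), and the call was lost without 6 of the 8 cortical arrays in turn, with adjusted p up to 0.193. In hippocampus 0 members passed, against 0% of all clusters, and 3 had an unadjusted p under 0.05, against 3.43%: Kcnmb2 (-0.43), Kcnk2 (0.58) and Kcnq5 (-0.51).

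The silent subunits, a family chosen by no rule, had medians of opposite sign in cortex at 6 and 12 weeks, and none of them passed this test. The values below combine those same comparisons, so they add no separate evidence. They include the 6-week control arrays that stood apart. The difference of curcumin differences was negative in 8 of 10, with a median of -0.52, against 0.00 over all clusters and -0.11 over all members. It was negative in 48 of the 80 members and 13365 of all 27342 clusters. Kcns3 (-0.64, limma adjusted p = 0.0597) and Kcns2 (-0.63, limma adjusted p = 0.0715) came nearest to the threshold, and Kcnv1 had the largest value (-1.05, limma adjusted p = 0.209). Without the first 6-week control array 6 members passed this test.

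Between tissues, the curcumin difference passed in 0 members at 6 weeks, against 0% of all clusters, with 9 at an unadjusted p under 0.05, against 5.48%. At 12 weeks 0 passed, against 0.190%, with 12 at an unadjusted p under 0.05, against 10.6%. Kcnk9 had the largest moderated t at 12 weeks, a value in hippocampus minus cortex of -1.0 ± 0.19 (SE, limma adjusted p = 0.0681). Kcnk2 pointed the other way at 0.84 (limma adjusted p = 0.170). At 6 weeks the largest moderated t belonged to Kcnmb4 (-0.64) and Kcnip3 (-0.68). That Kcnk9 passed in cortex and not in hippocampus is therefore not a shown difference between the tissues.

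Between 6 and 12 weeks, over both diets, 3 members differed in hippocampus: 2 rose, against 6.30% of all clusters, and 1 fell, against 4.54%. Kcnip4, a calcium-binding partner of Kv4 channels, read 8.12 and 8.16 in control and 8.19 and 8.21 in curcumin chow at 6 weeks, and 8.38 and 8.60 and then 8.77 and 8.49 at 12 weeks. The durations did not overlap, and Kcnip4 rose by 0.39 ± 0.08 (SE, n = 4, limma adjusted p = 0.0120). Kcns3, a silent subunit, read 6.66 and 6.74 in control and 6.94 and 6.78 in curcumin chow at 6 weeks, and 6.43 and 6.66 and then 6.44 and 6.32 at 12 weeks. The durations met at 6.66 without crossing. Kcns3 fell by 0.32 ± 0.07 (SE, n = 4, limma adjusted p = 0.0191), by 0.16 in control and 0.48 in curcumin chow. Kcna7, a Kv1 channel whose signal was low, rose by 0.20 (limma adjusted p = 0.0310) from 5.66 to 5.79 at 6 weeks to 5.82 to 5.97 at 12 weeks. The call of Kcna7 was lost without any 1 of 7 of the 8 arrays, and that of Kcns3 without any 1 of 4.

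The choroid plexus markers, above, had lower values at 12 weeks in these hippocampal groups, in 5 of 5 genes with a median of -1.41 and 0 called. Higher values came from 5 of 7 astrocyte markers (2 called, summed levels 9930 to 10200 at 6 and 10400 to 11300 at 12 weeks), 7 of 8 microglia markers (2 called, 1850 to 2140 and 2080 to 2380), 6 of 8 interneuron markers (2 called, 2770 to 2850 and 2970 to 3300) and 9 of 9 oligodendrocyte markers (0 called, 5140 to 7200 and 5670 to 9260). Their part was not tested. Without the second 6-week array of each chow, where those markers were highest, 0 members were called, and Kcnip4 stood at 0.40 (limma adjusted p = 0.0934), Kcns3 at -0.34 (adjusted p = 0.0955) and Kcna7 at 0.21 (adjusted p = 0.163). In control chow alone 0 were called and in curcumin chow alone 1, Kcns3.

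**Figure D5:**
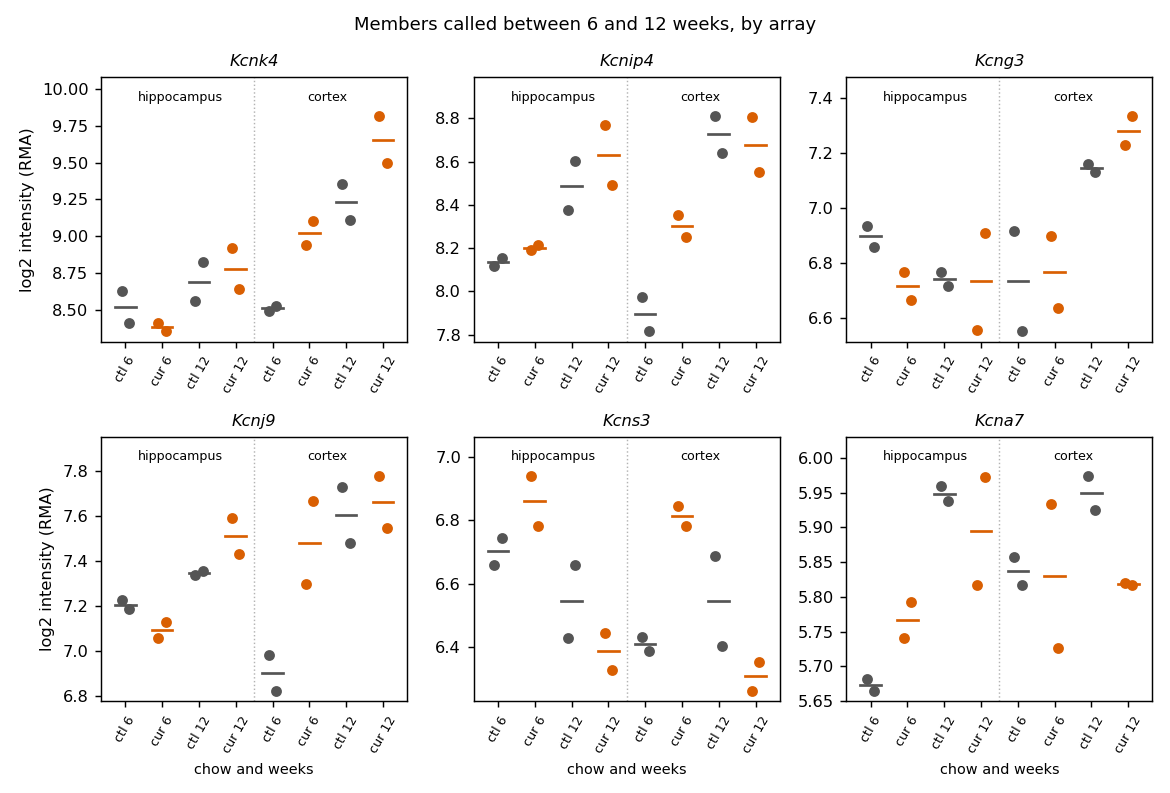
Log2 intensity of 6 members in each array, by tissue, chow (ctl, control; cur, curcumin) and weeks, with points for arrays and bars for group means of 2 arrays. Kcnip4 at 12 weeks lies above its 6-week arrays in both tissues, and Kcnk4 does so in cortex.

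In cortex 6 members rose between 6 and 12 weeks, against 5.38% of all clusters, and 0 fell, against 3.89%. Kcnk4 read 8.49 and 8.52 in control and 8.94 and 9.10 in curcumin chow at 6 weeks, and 9.35 and 9.11 and then 9.82 and 9.49 at 12 weeks. The durations did not overlap, and Kcnk4 rose by 0.68 ± 0.10 (SE, n = 4, limma adjusted p = 0.00220). Kcnip4 read 7.98 and 7.82 in control and 8.35 and 8.25 in curcumin chow at 6 weeks, and 8.81 and 8.64 and then 8.81 and 8.55 at 12 weeks. It rose by 0.60 ± 0.08 (SE, n = 4, limma adjusted p = 0.00161), without overlap. The silent subunit Kcng3 rose by 0.46, Kcnj9 by 0.44, Kcnip3 by 0.36 and Kcnmb4 by 0.24. The calls of Kcnip3 and Kcnmb4 were each lost without any 1 of 6 of the 8 arrays, and that of Kcnj9 without 1. In control and curcumin chow the values were 0.70 and 0.18 for Kcnj9, 0.55 and 0.16 for Kcnip3, and 0.47 and 0.02 for Kcnmb4, and the control arrays at 6 weeks were those that stood apart. The 4 curcumin comparisons and the durations share arrays. In curcumin chow alone 2 members were called, Kcnk4 at 0.64 (limma adjusted p = 0.0344) among them, while Kcnip4 stood at 0.38 (limma adjusted p = 0.12).

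The members with the most negative moderated t between durations in cortex did not pass: Kcnj16 (-0.68), Kcnk2 (-0.32) and Kcnj1 (-0.16). The signal of Kcnj1 was low, with means of 4.98 in control and 4.97 in curcumin chow at 6 weeks. Kcnj16 read 7.05 and 8.10 in control and 7.30 and 6.68 in curcumin chow at 6 weeks, against 6.46, 6.65, 6.19 and 7.13 at 12 weeks. The first control array at 6 weeks moved these counts most: without it 10 members were called in cortex, and without the first control array at 12 weeks 3 were. Lower values at 12 weeks also came from 7 of 7 olfactory bulb markers (1 called, summed levels 769 to 2620 at 6 and 647 to 981 at 12 weeks), 7 of 7 striatal markers (0 called, 856 to 3930 and 824 to 2540) and 7 of 9 oligodendrocyte markers (0 called, 3410 to 9700 and 4310 to 7000). Of the 8 interneuron markers 1 was called higher and 1 lower, as were 1 and 1 of the 6 endothelial and pericyte markers, and 1 each of the hypothalamus and thalamus, oligodendrocyte precursor and granule cell markers was lower. Their part was not tested.

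Genes whose products bind potassium channels or share their ion were read beside the members, 19 of 26 listed genes being measured. Between tissues 3 were higher in hippocampus, against 6.05% of all clusters, and 1 lower, against 3.63%. Dpp10, an ancillary subunit of Kv4 channels, was lower at -0.90 ± 0.13 (SE, n = 8, limma adjusted p = 0.00120), and its relative Dpp6 was higher at 0.23. Lgi1, a secreted protein linked to Kv1 channels at synapses, was higher at 0.52 and the sodium pump subunit Atp1b1 at 0.16. In the 4 curcumin comparisons 0 of the 19 were called, against 0% to 3.24% of all clusters. In the test of the curcumin difference between durations in cortex 1 was, against 1.47%, namely Lgi1 (-0.60, limma adjusted p = 0.0295). Lgi1 read 8.919 and 8.839 in cortical control chow at 6 weeks, the arrays that stood apart. In the other cortical arrays it read 9.055 to 9.349. Between 6 and 12 weeks 0 were called in hippocampus, against 6.30% of all clusters higher and 4.54% lower. In cortex 3 fell, against 3.89%: Dpp6 by 0.30, the ATP-sensitive channel subunit Abcc9 by 0.28 and the chloride importer Slc12a2 by 0.64. The 6-week control arrays that stood apart were the highest cortical ones for Dpp6 (9.353 and 9.538), Abcc9 (7.147 and 7.456) and Slc12a2 (9.795 and 9.637). In curcumin chow Dpp6 read 9.108 and 9.198 at 6 weeks and 8.913 and 9.211 at 12 weeks.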

How the data were processed

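Per the labels, RNA of 16 samples, 8 groups of 2, was hybridised to Affymetrix arrays. The authors processed the scans with Affymetrix Expression Console and RMA, which corrects background, normalises quantiles and summarises probes, and deposited log2 values per transcript cluster. This processing pulls arrays to a common distribution and compresses low signals. No version is given in the sources used here, and the methods name an exon array while the annotation is that of a gene array. Values ran from 4.33 to 12.87, and the number of arrays limits the precision. Symbols came from the platform annotation, where 11922 clusters had no symbol and 323 had several. Groups came from the labels.

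All 27342 clusters were fitted with limma 3.58.1 in R 4.3.3, with a mean for each of the 8 groups (8 residual and 3.12 prior degrees of freedom), 11 contrasts, and Benjamini-Hochberg adjustment over all clusters at 0.05, after a test on simulated data. The methods' rule of 1.5-fold or 0.66-fold carries no test. Alternatives were other normalisations, a filter on dim clusters, fewer arrays, a variance trend, array weights, blocks, and leaving out each array. Genes named were, by rule, the members that passed with the largest differences (10 in each direction between tissues, 8 elsewhere), where fewer than 3 passed the 3 with the largest moderated t, the brightest of each family, the study's 4 listed members and well-known brain channels. Members and lists were chosen with earlier results of these data known.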

Additional observations from a re-analysis of the deposited data

Results flagged for a closer look

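Kcnk1 in cortex had a curcumin difference that changed between durations, with a log2 value of -0.88 ± 0.19 (SE) for 12 minus 6 weeks (limma, adjusted p = 0.0456). Both 6-week curcumin arrays lay above both control arrays, and at 12 weeks both lay below. Of the 6-week control arrays, the first had the highest summed level of striatal markers among cortical arrays and the second that of olfactory bulb markers, and their part in the result was not tested. Leaving out each cortical array in turn gave values of -1.0 to -0.76.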

How the results depend on the processing

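Counts of called members moved with the settings as follows. Without dim clusters (58 members tested) 2 were called for curcumin in cortex at 6 weeks, 4 for its change with duration in cortex and 1 for its difference between tissues at 12 weeks. Quantile normalisation of all arrays or within each tissue gave 1 and 3 for the first pair. A variance trend with robust estimation gave 2 for cortex at 6 weeks and 1 between tissues at 12 weeks. The 1.5-fold rule gave 2 in cortex at 6 weeks and 3 in hippocampus at 12 weeks. With only the 8 arrays of a tissue, duration gave 8 in hippocampus and 2 in cortex, and cortical curcumin at 12 weeks and its change with duration gave 0. With only the 4 arrays compared, cortex at 12 weeks gave 0, and array weights took the change with duration to 0. Control chow alone gave 9 between tissues and 0 for duration in hippocampus. The 12-week groups alone, given above for the tissues, were a setting added after seeing the data. Chosen after seeing the data, curcumin chow alone gave 1 for duration in hippocampus and 2 in cortex, and leaving out both hippocampal arrays of high choroid plexus signal gave 0. Leaving out each array in turn gave 17 to 25 between tissues, 1 to 5 for duration in hippocampus, 3 to 10 in cortex, 0 to 6 for curcumin in cortex at 6 weeks and for its change with duration there, 0 for curcumin in cortex at 12 weeks, and 0 to 3 for its difference between tissues at 6 weeks. No value reversed under these settings among those followed. These were the members picked in each comparison by passing or by moderated t, and the study's listed members. Other named members were not followed, and small tissue differences such as those of Kcnc1, Kcnd3 and Kcnma1 did not keep 1 sign across diet and duration. The cause of these moves was not tested. As each member had 1 cluster, averaging clusters gave nothing new. Whether the replicate numbers paired samples was not settled. Correlations of deviations were -0.154 to 0.162 between tissues and -0.429 to 0.04 between diets. Between other groups they ran from -0.425 to 0.494, too wide a range for this check to decide. With the number as a replicate block, 0 members were called for the change with duration in cortex and Kcnb2 lost its tissue call (limma adjusted p = 0.0555).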

Other observations

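The spread of the potassium channel genes between arrays of a group differed by group. The SD of the difference between the 2 arrays was 0.139 for members and 0.139 for all clusters in hippocampus with 6-week curcumin chow, and 0.344 against 0.208 in cortex with 6-week curcumin chow. In cortex with 6-week control chow 9 of the 80 members lay at least 1.5-fold apart between the arrays, against 2.14% of all clusters. Beside Kcnab1, these included Kcnb2 (6.97 and 8.30), Kcnab3 (6.60 and 7.77) and Kcnj16 (7.05 and 8.10), chosen after their values were seen.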
